A study of Mus musculus with 36 samples.

Results

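Tumors rich in Cd8a transcript were compared with tumors poor in it inside 1 expression class of a mouse tumor RNA-sequencing study. Of the 36 libraries of the study, 12 held more than 1000 CPM (counts scaled to a common library total) of Cp, the gene for ceruloplasmin, a copper-carrying ferroxidase. These 12 were ranked by their CPM of Cd8a, the α chain of the CD8 co-receptor, and the upper 6 (CD8-rich) were set against the lower 6 (CD8-poor). The members were thus chosen by measured values, the levels of Cp and Cd8a, and the model and treatment named in the labels were not used for them. Since the same counts chose and described the 2 sides, differences between them are given as levels and log2 differences with no p-value.

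CD8 T cells recognize peptides on major histocompatibility complex (MHC) class I molecules through the T cell receptor, which signals through the CD3 chains and the kinases Lck and Zap70. CD8 is a dimer of Cd8a with Cd8b1 on most cytotoxic T cells, while Cd8a pairs with itself on some other cells, such as a subset of dendritic cells. Activated CD8 T cells release granzymes, perforin and interferon-γ, and interferon-γ induces MHC genes, the chemokine genes Cxcl9 and Cxcl10 and the checkpoint ligand Cd274 (PD-L1) in the cells around them.

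The study grafted the colon carcinoma lines MC38 and CT26 and the pancreatic line PancO2 under the skin of wild-type mice aged 12 weeks. The labels give the strain as C57BL/6J for MC38 and PancO2 and BALB/c for CT26. Mice received 10 mg/kg of α-PD-1, α-CTLA4 or control IgG by intraperitoneal injection, 4 libraries for each of the 9 combinations, and polyadenylated RNA of the whole tumor was sequenced. Tumor cells, leukocytes, stroma and any skin or muscle taken with the tumor were therefore read together, and fewer cells of a type cannot be told apart from less RNA per cell.

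The CD8-rich libraries, named by label and mouse number, were PancO2 anti-CTLA4 57, MC38 anti-PD-1 17, MC38 anti-CTLA4 8, MC38 IgG 7, PancO2 IgG 48 and CT26 anti-PD-1 46. The CD8-poor libraries were MC38 anti-PD-1 18, CT26 anti-CTLA4 36, PancO2 anti-PD-1 70, PancO2 anti-PD-1 68, CT26 IgG 28 and PancO2 anti-CTLA4 58. Both sides thus mixed all 3 labelled tumor models and all 3 labelled treatments, with 3 MC38, 2 PancO2 and 1 CT26 among the CD8-rich and 1, 3 and 2 among the CD8-poor. The labels and the transcripts did not go together. H2-Ea-ps, an MHC class II gene silent in C57BL/6 mice and active in BALB/c mice, was at or below 0.0845 CPM in all 12 libraries although 3 of them were labelled CT26, and of the 12 libraries of the study above 10 CPM only 4 were labelled CT26. Model and treatment names are used below as names of libraries only.

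Counts assigned to genes ran from 13174505 to 41751023 per library in the 12, and mitochondrially encoded genes took 3.27% to 4.35% of them. Cd8a itself rested on 653 to 1370 counts in the CD8-rich libraries and on 157 to 867 in the CD8-poor ones. Its level was 23.6, 31.2 and 57.9 CPM at the lowest, the median and the highest of the CD8-rich, against 11.9, 19.6 and 23.1 CPM in the CD8-poor. The 24 libraries outside the class had a median of 13.8 CPM, so CD8-poor means poor within this class only. The 2 libraries at the border, CT26 anti-PD-1 46 and MC38 anti-PD-1 18, stood at 23.6 and 23.1 CPM, so the cut ran through a continuous range. For Cp, the lowest library inside the class was at 1389 CPM (PancO2 IgG 48) and the highest outside it at 611 CPM (PancO2 IgG 49). Cp did not separate the sides, at a median of 1727 CPM in the CD8-rich and 1832 CPM in the CD8-poor libraries. Krt14, a keratin of the basal epidermis, reached 209.8 CPM in PancO2 IgG 48, and Acta1, skeletal muscle actin, reached 234.9 CPM in MC38 anti-PD-1 18, so these libraries are also left out in turn below.

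Few genes followed the cut completely, and by CPM, at a mean of at least 1 CPM, none of them was lower on the CD8-rich side. Of 13715 genes with a mean of at least 1 CPM over the 12 libraries, 15 (0.109%) were higher in every CD8-rich than in every CD8-poor library and 0 were lower in every one. Of the 15, Ighg2b and Asprv1 also differed by at least 2-fold (0.0146% of the genes). Ighg2b reached the mean of 1 CPM only through the CD8-rich side, at means of 1.88 and 0.301 CPM. Allowing 2 of the 36 comparisons between a CD8-rich and a CD8-poor library to go the other way raised the count to 44 genes higher (0.321%) and 5 lower (0.0365%), a rule added after the data were seen. With 6 libraries a side, shares this small can arise from a cut unrelated to the genes. Neither count therefore shows by itself that a gene follows Cd8a, and this was not tested. The 44 included 7 of the 21 measured genes of the T cell receptor complex and its signaling, among them Cd3g, Cd5, Ubash3a, Themis, Thy1 and Trac, and the cytotoxic granule gene Ctsw. The 5 lower genes were Copg1, Usp22, Mgea5, Dnaja4 and Megf10, of which Megf10, an engulfment receptor of glia and muscle precursors, stood the furthest apart, at a log2 difference of -1.06 ± 0.32 (SE, n = 6 and 6). Over all genes the median log2 difference was 0.00, and 52.0% were above 0. Log2 differences are CD8-rich minus CD8-poor means of log2(CPM + 0.5), so they understate the change of genes near 0.5 CPM.

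The T cell receptor genes followed the ranking as a group. All 21 measured members were higher on average in the CD8-rich libraries, with log2 differences of 0.28 to 0.79 and a median of 0.53. Cd8b1, the partner chain of Cd8a, was at 6.24, 11.1 and 16.6 CPM (lowest, median, highest) in the CD8-rich and at 3.87, 5.71 and 7.85 CPM in the CD8-poor libraries. The sides overlapped because CT26 anti-PD-1 46 and PancO2 IgG 48 stood below MC38 anti-PD-1 18, and the log2 difference was 0.79 ± 0.23 (SE). The ratio of Cd8b1 to Cd8a CPM stayed between 0.265 and 0.369 in the 12 libraries. Cd3g, a chain of the CD3 signaling complex, ran from 12.1 to 28.8 CPM around a median of 18.9 in the CD8-rich and from 8.33 to 12.4 CPM around 10 in the CD8-poor libraries. Cd3g was thus higher in 35 of 36 pairs, with a log2 difference of 0.78 ± 0.20. For Cd3e, the ε chain of the same complex, the ranges were 8.7 to 22.8 and 6.08 to 10.8 CPM with medians of 13.7 and 8.49 CPM. PancO2 anti-CTLA4 58, the library with the least Cd8a, held the second highest Cd3e of the CD8-poor side, and Cd4 there was 0.803 of Cd8a against 0.128 to 0.311 in the other 11 libraries. Trac, the constant segment of the T cell receptor α chain, differed by 0.51 ± 0.16, Lck by 0.52 ± 0.18 and Zap70 by 0.39 ± 0.21 on the log2 scale.

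**Figure D1:**
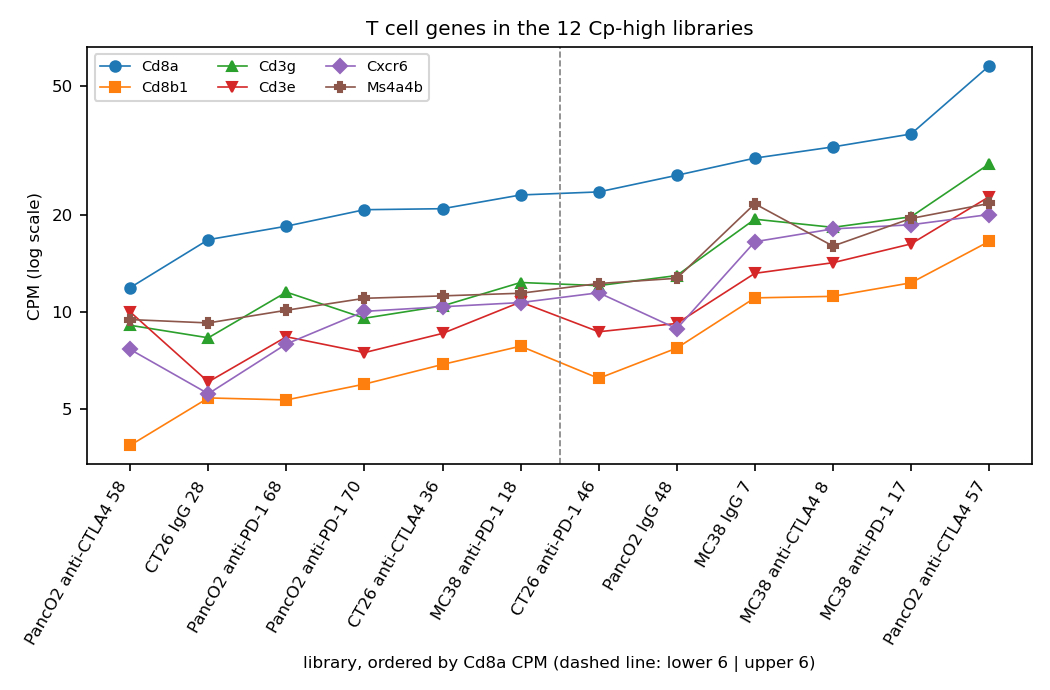
CPM of 6 T cell genes (log scale) in the 12 Cp-high libraries, ordered from the lowest to the highest Cd8a; each point is 1 library and the dashed line separates the CD8-poor 6 (left) from the CD8-rich 6 (right). The 4 libraries with the most Cd8a stand above the other 8 for Cd8b1, Cd3g, Cd3e and Cxcr6, and the points on either side of the dashed line are close together.

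Cxcr6, a chemokine receptor of tissue-resident and effector T cells, showed the same course, at 8.89, 17.3 and 20.1 CPM against 5.59, 9.02 and 10.7 CPM. Its log2 difference was 0.78 ± 0.23, with 33 of 36 pairs higher. Comparing only the 4 libraries with the most and the 4 with the least Cd8a, which leaves out the close border, separated 290 of 13601 genes upward (2.13%) and 216 downward (1.59%). With 4 libraries a side an unrelated cut separates more genes than with 6, so these shares do not compare with those above. Of the 21 T cell receptor genes, 15 separated upward in that comparison and 0 downward. By at least 2-fold, 18 genes separated upward (0.132%) and 3 downward (0.0221%). The 18 included Ccl5, a T cell and NK cell chemokine, at a log2 difference of 1.30, Cd8b1 at 1.23, Cxcr6, the granule gene Nkg7 at 1.11, the transcription factor Tbx21 at 1.02, the checkpoint receptor Pdcd1 at 1.02 and the exhaustion-associated factor Tox. The 3 downward genes were Nrep at -1.01, Tnc, the matrix glycoprotein tenascin C, and Megf10 at -1.42.

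Among the 15 genes without overlap, Ms4a4b, Glrx, Anpep and Mto1 had a mean of at least 10 CPM. In the GENCODE annotation of the mouse genome Ms4a4b lies on chromosome 19 from 11443553 to 11467055 and Glrx on chromosome 13 from 75839868 to 75850154. Anpep lies on chromosome 7 from 79821803 to 79861059 and Mto1 on chromosome 9 from 78448208 to 78475348. Ms4a4b, a membrane protein of T cells, was at 12.3, 17.8 and 21.7 CPM in the CD8-rich and 9.26, 10.6 and 11.4 CPM in the CD8-poor libraries, a log2 difference of 0.67 ± 0.16. Glrx, the thiol oxidoreductase glutaredoxin, was at 55.4 to 90.8 CPM with a median of 67.3 against 35.2 to 50.4 CPM with a median of 47. The step for Glrx was 0.57 ± 0.13 on the log2 scale. Anpep, aminopeptidase N of myeloid and stromal cells, had medians of 47.7 and 38.7 CPM and a difference of 0.37 ± 0.11. Mto1, a mitochondrial tRNA-modifying protein, kept its sides apart with a step of only 0.17 ± 0.03, from 11.7 to 13.3 CPM below and 13.6 to 15.1 CPM above. The other 11 included, named after their values were seen, Ighg2b, Asprv1, Grap2, Pglyrp2, Rab19, Gm13816, Gimap1os, Map7, Nlrp1a and ENSMUSG00000083797. Gm13816 and Map7, like Ighg2b, reached a mean of 1 CPM only through the CD8-rich side, with CD8-poor means of 0.763 and 0.849 CPM. Grap2, an adaptor of T cell receptor signaling, was at 9.72 to 16.9 CPM against 5.35 to 9.37 CPM. Ighg2b, an immunoglobulin heavy-chain constant gene, had medians of 1.61 and 0.223 CPM and a log2 difference of 1.48 ± 0.29. Asprv1, a protease of the epidermis, was at 1.52 to 25.2 CPM against 0.979 to 1.22 CPM, and its highest value came from PancO2 IgG 48, the library with the most Krt14. The part of skin in that value was not tested.

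The count of genes without overlap moved with single libraries and with the scaling. Without CT26 anti-PD-1 46 it was 56 higher and 33 lower, without PancO2 anti-PD-1 70 it was 46 and 12, and without MC38 anti-PD-1 18 it was 30 and 0. Of the 15 genes, 10 stayed apart under TMM scaling and 9 under median-of-ratios scaling, and Grap2 and Anpep were among those that overlapped under both. Over all genes TMM scaling gave 12 higher and 1 lower, and median-of-ratios scaling 11 and 2. With a filter of at least 1 count the numbers were 21 and 4, and with libraries ranked by Cd8b1 they were 55 and 22.

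Cytotoxic effector genes were higher on the CD8-rich side in 13 of 13 measured members, with a median log2 difference of 0.53. Of the 13, 0 separated the sides, where 0.109% of all genes did, and 1 did under TMM or median-of-ratios scaling. Gzmb, the protease granzyme B, was at 6.59, 12.3 and 28.2 CPM in the CD8-rich and 2.91, 4.32 and 17.7 CPM in the CD8-poor libraries. The highest CD8-poor value came from PancO2 anti-PD-1 70, where Gzmb stood at 2.35 times Cd3e, the largest such ratio of the 12. The log2 difference of Gzmb was 1.03 ± 0.49, and that of Prf1, the pore-forming perforin, was 0.69 ± 0.57. Gzmf, a granzyme of strongly activated T cells, differed by 1.37 ± 0.70 at medians of 2.71 and 0.224 CPM. Ifng itself was low, at 1.23, 2.21 and 3.48 CPM against 0.219, 0.97 and 4.07 CPM, a difference of 0.70 ± 0.43. Ctsw, cathepsin W of cytotoxic lymphocytes, had a narrower spread and was higher in 35 of 36 pairs, by 0.53 ± 0.17. Gzma, granzyme A, was at a log2 difference of 0.20 ± 0.50, within its error.

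All 15 checkpoint and costimulatory receptor genes had a positive log2 difference, with a median of 0.47. Pdcd1, which encodes PD-1, was at 6.09, 10.8 and 25.1 CPM in the CD8-rich and 5.54, 6.82 and 8.2 CPM in the CD8-poor libraries. Its log2 difference was 0.63 ± 0.29, and the highest value was in PancO2 anti-CTLA4 57, the library with the most Cd8a. Icos, an inducible costimulator, differed by 0.86 ± 0.34 at medians of 7.84 and 4.21 CPM. Cd244a, a receptor of the SLAM family on NK and CD8 T cells, differed by 0.68 ± 0.32, Tox by 0.62 ± 0.30 and Lag3 by 0.47 ± 0.31. Btla, an inhibitory receptor also found on B cells, was at 0.06 ± 0.43, the smallest of the list.

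Genes of other lymphocytes also leaned to the CD8-rich side. The 6 measured CD4 and regulatory T cell genes were all positive, with a median of 0.49. Foxp3, the regulatory T cell factor, was at 3.17 to 7.45 CPM against 1.97 to 4.0 CPM, higher in 33 of 36 pairs by 0.63 ± 0.21, while Cd4 differed by 0.41 ± 0.24 at medians of 6.92 and 4.98 CPM. Without MC38 anti-PD-1 17 the median of this list was 0.31. The 7 measured of 15 NK cell genes had a median of 0.46, with Klrk1, the receptor NKG2D shared by NK and CD8 T cells, at 0.74 ± 0.31 and Klrc1 at 0.69 ± 0.27. Klrk1 and Klrc1 had the largest differences of the 7, which ran from 0.02 to 0.74. Naive and memory T cell genes were split, with 7 of 9 positive and a median of 0.14, which was 0.057 without PancO2 IgG 48, 0.21 without MC38 IgG 7 and 0.23 without MC38 anti-CTLA4 8. Ccr7 differed by 0.54 ± 0.29 and Il7r by 0.47 ± 0.20, whereas the factors Tcf7 and Lef1 were at 0.01 ± 0.08 and 0.06 ± 0.22. S1pr1, a receptor for exit from tissue that endothelium also expresses, lay on the CD8-poor side at -0.36 ± 0.19. The 5 measured of 15 B and plasma cell genes had a median of 0.23, which was 0.41 without MC38 anti-PD-1 18. Among them Igkc, the κ light chain, was at 1.77, 3.4 and 16 CPM against 0.658, 1.43 and 2.64 CPM and higher in 34 of 36 pairs. Its log2 difference was 1.47 ± 0.49, and Jchain, which joins secreted immunoglobulin, differed by 1.01 ± 0.53.

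Interferon-γ response genes were higher on average on the CD8-rich side in 24 of 24 measured members. Of the 24, 0 separated the sides, where 0.109% of all genes did. The median log2 difference was 0.47, and the summed level of the list was 2868, 4447 and 7950 CPM (lowest, median, highest) in the CD8-rich against 1701, 2906 and 8149 CPM in the CD8-poor libraries. The highest sum of the 12 belonged to PancO2 anti-PD-1 70, on the CD8-poor side. Cxcl9, a chemokine that attracts T cells through Cxcr3, was at 168, 287 and 395 CPM against 73.9, 195 and 446 CPM, a difference of 0.48 ± 0.43. Cd274 was at 63.5, 87.4 and 206 CPM against 41.1, 52.3 and 173 CPM, a difference of 0.51 ± 0.43. Batf2, a transcription factor of activated macrophages, and Serping1, the inhibitor of complement C1, differed by 0.75 ± 0.57 and 0.64 ± 0.44. The median of the list was 0.72 without PancO2 anti-PD-1 70, 0.30 without MC38 anti-CTLA4 8 and 0.29 without CT26 IgG 28. Type I interferon response genes were positive in 16 of 16 with a median of 0.46, and moved with single libraries, to 0.75 without PancO2 anti-PD-1 70, 0.29 without MC38 anti-PD-1 18, 0.21 without PancO2 anti-CTLA4 58 and 0.18 without MC38 anti-CTLA4 8.

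The start regions of these genes were searched because interferon-γ acts on its target genes through the γ-activated site, with the pattern TTCNNNGAA, and because factors of the IRF family bind the pattern GAAANNGAAA. Both patterns were searched on both strands of the 300 bases from 250 before to 50 after each transcription start, as given by RefSeq for GRCm38.p6. Of the 26 listed interferon-γ genes, 16 had such a window, 19 windows in all. TTCNNNGAA occurred in 8 of the 19, or 42.1%, and in 8.30% of all 32851 windows. The 8 belonged to Irf1, Irf8, Gbp5, Gbp7, Igtp, Irgm2, Tgtp1 and Tgtp2, and Gbp5 had no measured difference between the sides. GAAANNGAAA, a search added after the data were seen, occurred in 11 of the 19, or 57.9%, and in 3.44% of all windows. Many windows with either pattern belong to families of related genes, so they are not independent cases. Among the 4 members named by rule, Cxcl9 and Cd274 had a window and neither pattern was in it, and Batf2 and Serping1 had no window. Shown instead are the 3 measured members with TTCNNNGAA and the largest log2 differences, chosen after their values were seen, and Cd8a, the gene that ranked the libraries. Tgtp1 and the neighbors Igtp and Irgm2 encode interferon-inducible GTPases and lie on chromosome 11, and their windows are related copies and not independent. Capitals mark the 2 patterns, which did not overlap in any of these windows.
Tgtp1, minus strand, chr11:48992197-48992496: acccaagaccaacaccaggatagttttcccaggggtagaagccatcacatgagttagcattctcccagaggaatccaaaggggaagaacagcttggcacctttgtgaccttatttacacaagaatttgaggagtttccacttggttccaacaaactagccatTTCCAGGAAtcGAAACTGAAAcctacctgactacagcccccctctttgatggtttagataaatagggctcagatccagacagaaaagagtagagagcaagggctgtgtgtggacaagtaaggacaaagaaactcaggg
Igtp, plus strand, chr11:58199306-58199605: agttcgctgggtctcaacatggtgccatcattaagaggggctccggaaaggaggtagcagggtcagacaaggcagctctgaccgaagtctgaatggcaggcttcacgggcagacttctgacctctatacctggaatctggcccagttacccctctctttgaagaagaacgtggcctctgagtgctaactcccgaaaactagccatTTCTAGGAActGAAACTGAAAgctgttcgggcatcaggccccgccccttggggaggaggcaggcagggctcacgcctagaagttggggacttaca
Irgm2, plus strand, chr11:58214727-58215026: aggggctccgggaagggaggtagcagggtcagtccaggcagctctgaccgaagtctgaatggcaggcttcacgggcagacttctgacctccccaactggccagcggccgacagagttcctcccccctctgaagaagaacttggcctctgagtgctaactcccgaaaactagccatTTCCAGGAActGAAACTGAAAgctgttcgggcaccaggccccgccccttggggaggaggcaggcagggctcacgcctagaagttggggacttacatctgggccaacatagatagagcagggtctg
Cd8a, plus strand, chr6:71373177-71373476: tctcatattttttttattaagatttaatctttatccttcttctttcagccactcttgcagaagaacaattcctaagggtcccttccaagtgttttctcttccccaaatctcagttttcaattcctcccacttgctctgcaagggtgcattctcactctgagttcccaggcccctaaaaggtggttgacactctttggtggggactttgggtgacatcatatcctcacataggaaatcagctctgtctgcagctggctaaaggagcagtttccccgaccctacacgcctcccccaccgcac
In the first 3, TTCNNNGAA began 88, 45 and 75 bases before the start and was followed by GAAANNGAAA. The Cd8a window held neither pattern. Tgtp1 differed by 0.58 ± 0.48 between the sides, Igtp by 0.54 ± 0.52 and Irgm2 by 0.52 ± 0.42 (log2, SE). A pattern match describes the letters only.

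MHC class II genes had a median of 0.63, with 10 of 11 measured members positive. Of the 11, 0 separated the sides, where 0.109% of all genes did. Ciita, the master activator of MHC class II transcription, was at 55.8, 66.4 and 115 CPM in the CD8-rich and 14.2, 36.1 and 111 CPM in the CD8-poor libraries. Its spread was wider on the CD8-poor side, and the log2 difference was 0.88 ± 0.51. Cd74, the invariant chain, was higher in 30 of 36 pairs, by 0.71 ± 0.35, and H2-DMb2, a peptide-loading chain, differed by 0.85 ± 0.58. H2-Oa, an inhibitor of peptide loading, was at -0.06 ± 0.39. The 17 measured MHC class I genes were all positive with a smaller median of 0.31, led by H2-T23 at 0.53 ± 0.32 and H2-Q7 at 0.49 ± 0.16. B2m, the shared light chain, differed by 0.30 ± 0.19. Without CT26 IgG 28 the medians were 0.41 for class II and 0.20 for class I, and without MC38 anti-CTLA4 8 that of class I was 0.20. Reads of the H2-Q, H2-T, Gbp, Tgtp and granzyme families can be split between near-identical copies, so their single values are uncertain.

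**Figure D2:**
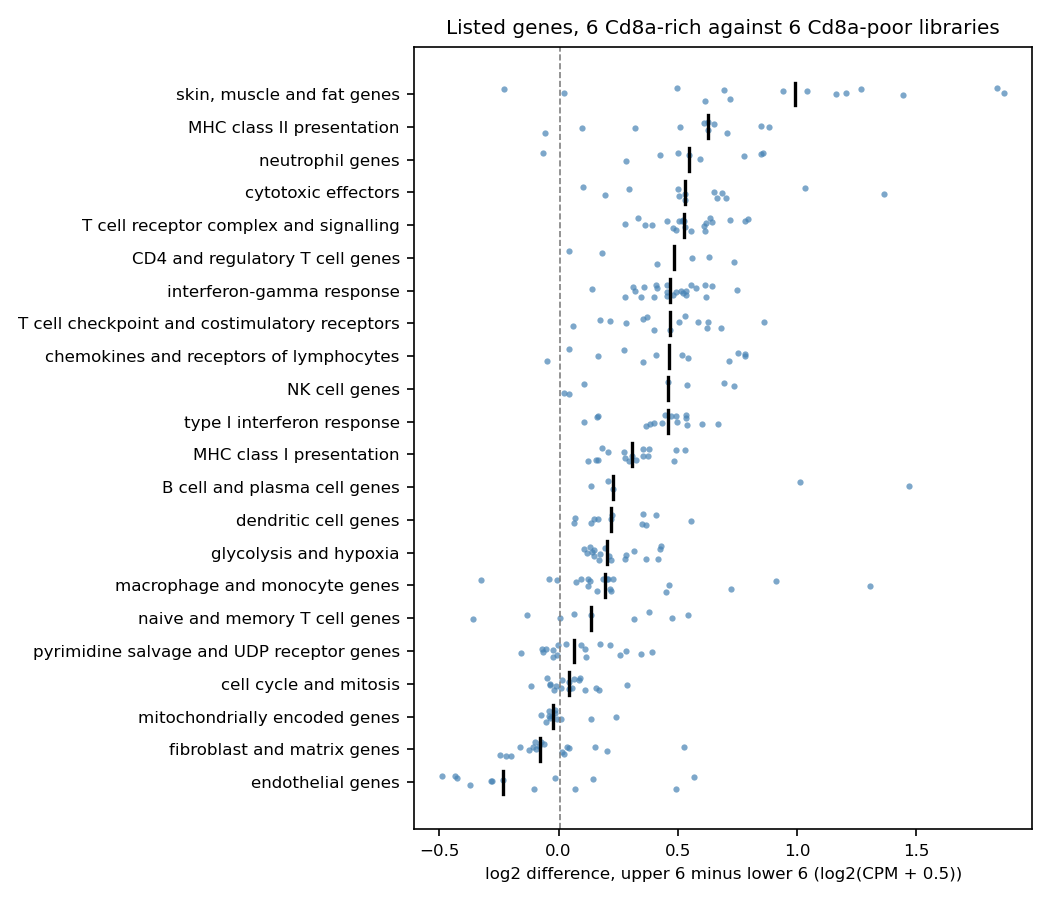
Log2 difference between the 6 CD8-rich and the 6 CD8-poor libraries (log2(CPM + 0.5)) for the measured genes of 22 lists; each point is 1 gene, the black tick is the list median and the dashed line is the median of all 13715 genes. Lymphocyte, interferon and MHC lists lie to the right of the dashed line, fibroblast and endothelial lists have medians of -0.08 and -0.23, and the skin, muscle and fat list spreads the widest.

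Macrophage and monocyte genes differed little as a group, with 17 of 20 positive and a median of 0.19 (0.10 without CT26 IgG 28), and their summed level overlapped fully, at 6125 to 7847 CPM in the CD8-rich and 4942 to 8128 CPM in the CD8-poor libraries. Adgre1, which encodes F4/80, was at 0.22 ± 0.13 and Csf1r, the receptor for colony-stimulating factor 1, at 0.08 ± 0.14. Nos2, inducible nitric oxide synthase, ranged from 19.2 to 122 CPM around 47.6 in the CD8-rich and from 4.4 to 105 CPM around 18.9 in the CD8-poor libraries, a difference of 1.30 ± 0.78. Arg1, arginase 1, differed by 0.91 ± 0.52. Mrc1, which encodes the mannose receptor CD206, was at 24.3, 55.6 and 95.1 CPM against 26.4, 54.5 and 70.5 CPM, with a difference of 0.09 ± 0.35. Msr1, the scavenger receptor CD204, was at 0.45 ± 0.28, and Cd163, the hemoglobin scavenger receptor, leaned to the CD8-poor side at -0.33 ± 0.21, being higher in the CD8-rich library in only 6 of 36 pairs. The 12 dendritic cell genes were all positive with a median of 0.22, led by the chemokine Ccl22 at 0.56 ± 0.28. That median was 0.09 without PancO2 anti-CTLA4 57, 0.37 without MC38 anti-PD-1 18 and 0.39 without MC38 anti-CTLA4 8. Neutrophil genes had a median of 0.55 over 9 genes, which was 0.33 without PancO2 IgG 48, where S100a9 stood at 63.1 CPM.

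The study concerned cytidine deaminase (Cda), which turns cytidine into uridine, and the UDP receptor P2ry6 of macrophages, so both were read for this split. Cda was at 13.9, 15 and 20.2 CPM in the CD8-rich and 9.11, 13.4 and 21.3 CPM in the CD8-poor libraries. It was higher in 30 of 36 pairs by 0.26 ± 0.19, and the highest value of all was in CD8-poor PancO2 anti-PD-1 70. P2ry6 was at 24.6, 27.4 and 30.1 CPM against 17.8, 25.5 and 28.2 CPM, a difference of 0.21 ± 0.12. P2ry14, a receptor for UDP-sugars, differed by 0.39 ± 0.26 and Upp1, uridine phosphorylase 1, by 0.35 ± 0.49. The whole list of pyrimidine salvage and UDP receptor genes had 10 of 18 positive and a median of 0.06.

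**Figure D3:**
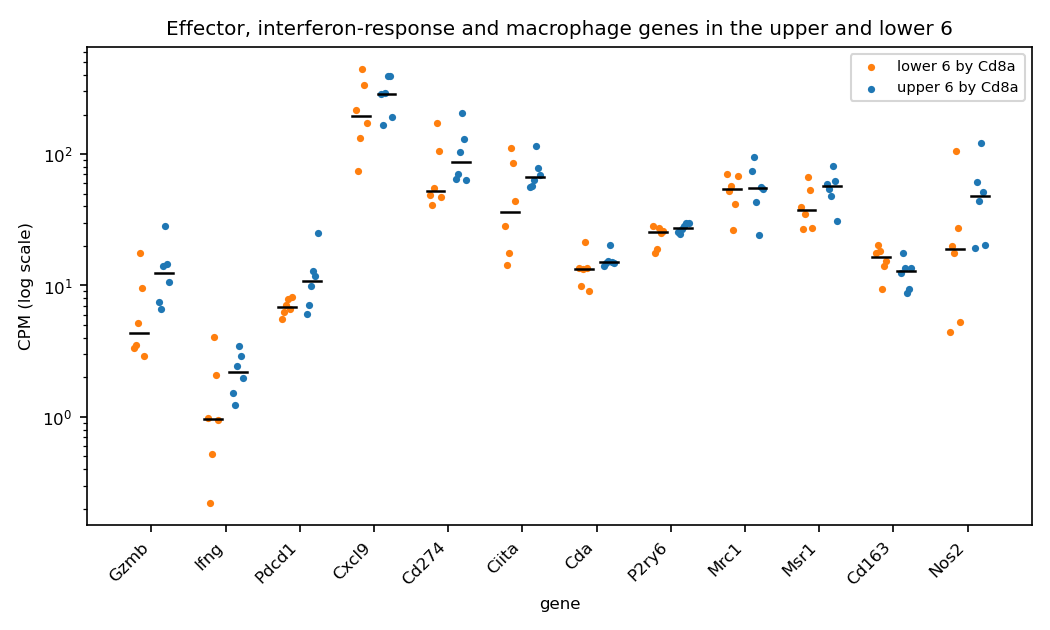
CPM (log scale) of 12 effector, interferon-response and macrophage genes in the 6 CD8-poor (orange) and the 6 CD8-rich (blue) libraries; each point is 1 library and the black line is the median of 6. Every gene shown overlaps between the sides, where 0.109% of all genes do not. The medians of Gzmb are 4.32 and 12.3 CPM and those of Mrc1 54.5 and 55.6 CPM.

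Stromal genes leaned slightly to the CD8-poor side or to neither. Of 18 fibroblast and matrix genes 7 were positive, with a median of -0.08, and the largest positive one was Thy1, at 0.53 ± 0.13, a gene that T cells also express. Pdgfrb, a receptor of pericytes and fibroblasts, was at 275 to 484 CPM against 310.5 to 571 CPM, a difference of -0.24 ± 0.19. Endothelial genes had 4 of 13 positive and a median of -0.23, with Tie1 at -0.49 ± 0.29, Esam at -0.43 ± 0.21 and Cdh5, vascular cadherin, at -0.37 ± 0.28. That median was -0.11 without PancO2 anti-PD-1 68, and the fibroblast median changed sign with 1 library, to 0.02 without MC38 anti-PD-1 18 and 0.03 without MC38 anti-CTLA4 8. Cell cycle genes had a median of 0.04 and mitochondrially encoded genes of -0.02, and glycolysis and hypoxia genes were positive in 18 of 18 with a median of 0.20, which was 0.08 without MC38 anti-PD-1 18. Skin, muscle and fat genes had the largest median, 0.99 over 14 measured genes, and their summed level ran from 29.6 to 788 CPM in the CD8-rich and from 16.9 to 724 CPM in the CD8-poor libraries. Without PancO2 IgG 48 that median was 0.46. Leaving out PancO2 IgG 48 and MC38 anti-PD-1 18 together, the libraries richest in keratin and muscle transcript, moved the T cell receptor median from 0.53 to 0.62 and the MHC class II median from 0.63 to 0.83.

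The 24 libraries outside the class took no part in the ranking, and they were used to test which genes follow Cd8a. In them Cd8a ran from 0.851 to 36.3 CPM. CT26 IgG 24 and CT26 anti-PD-1 40, at 0.851 and 1.84 CPM, lay below the rest, which began at 6.00 CPM. Those libraries were left out singly but not together, so how far the slopes rest on both was not tested. A slope on log2(Cd8a CPM + 0.5) was fitted to the counts with edgeR's quasi-likelihood test, with a term for the 12 libraries above 10 CPM of H2-Ea-ps and the 12 below it. At an adjusted p under 0.05, 272 of 17433 genes rose with Cd8a (1.56%) and 21 fell (0.12%). A slope of 1 means a doubling for each doubling of Cd8a. The labels do not say that the libraries of a group are separate experiments beyond separate mice, and the p-values measure the spread between these libraries.

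T cell genes rose with Cd8a in those libraries. Cxcr6 rose with a slope of 1.19 ± 0.07 (SE, edgeR adjusted p = 3.02e-11), Cd3g with 0.95 ± 0.06 (edgeR adjusted p = 8.18e-10) and Pdcd1 with 1.01 ± 0.07 (edgeR adjusted p = 5.26e-09). Cd8b1 rose in proportion to Cd8a, at 1.02 ± 0.08 (edgeR adjusted p = 1.72e-08). Of the T cell receptor genes 18 of 22 rose, of the cytotoxic effectors 6 of 17, of the checkpoint receptors 7 of 15 and of the NK cell genes 4 of 15. The median slope of the 15 NK cell genes was 0.25 in these libraries and 0.17 in the Cp-high ones, and no gene passed the test of a difference of slopes given below. Over all genes tested 1.56% rose. Of the CD4 and regulatory T cell genes 0 of 6 tested rose, near that share, with Foxp3 at 0.17 ± 0.11 and Cd4 at 0.39 ± 0.12. Gzmb missed the threshold at 0.40 ± 0.11 (edgeR adjusted p = 0.0699) and passed it in DESeq2 and limma-voom (adjusted p = 0.0184 and 0.0477), and Prf1 was at 0.33 ± 0.12. Of the 4 genes that separated the Cp-high sides at 10 CPM or more, Ms4a4b rose at 0.53 ± 0.08 (edgeR adjusted p = 9.86e-05) and Anpep at 0.18 ± 0.04 (edgeR adjusted p = 0.026), a call lost without MC38 IgG 2, MC38 anti-CTLA4 11, CT26 anti-PD-1 40 or CT26 anti-PD-1 42 (edgeR adjusted p of 0.0526 to 0.135), and Glrx and Mto1 were at 0.09 ± 0.05 and -0.02 ± 0.08.

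Interferon-γ response and MHC genes also rose there, read against 1.56% of all genes. Of the interferon-γ list 19 of 24 rose, of MHC class I 14 of 17 and of MHC class II 9 of 11. Of the type I interferon genes 0 of 16 rose in edgeR, near the share of all genes. Ifi44 of that list passed in DESeq2 (DESeq2 adjusted p = 0.0388) and missed in limma-voom (limma-voom adjusted p = 0.0691). The median slope of the type I list was 0.14 in these libraries and 0.70 in the Cp-high ones. For the difference of slopes, 0 of the 16 had an unadjusted edgeR p under 0.05, against 2.45% of all genes. Cxcl9 had a slope of 1.30 ± 0.17 (edgeR adjusted p = 2.74e-05), Ifng of 1.2 ± 0.15 (edgeR adjusted p = 1.70e-05) and Ciita of 0.93 ± 0.12 (edgeR adjusted p = 1.83e-05). H2-T23 and H2-Q7 rose at 0.30 ± 0.03 and 0.45 ± 0.05. Cd274 missed the threshold at 0.38 ± 0.11 (edgeR adjusted p = 0.0926) and passed it in DESeq2 and limma-voom (adjusted p = 0.0257 and 0.0152). Of the 20 macrophage, 18 fibroblast and 12 neutrophil genes tested 0 rose, and Cda and P2ry6 were at 0.17 ± 0.10 and -0.09 ± 0.05 (edgeR adjusted p = 0.74 and 0.747). Mrc1 and Cd163 had negative slopes, -0.26 ± 0.08 and -0.51 ± 0.17, that missed the threshold (edgeR adjusted p = 0.128 and 0.184). Cd163 passed it in limma-voom (adjusted p = 0.0448). P2ry14 rose at 0.42 ± 0.10 (edgeR adjusted p = 0.0225), a call lost without CT26 IgG 24 or CT26 anti-PD-1 40 (edgeR adjusted p = 0.417 and 0.156), and its slope was -0.05 ± 0.25 in the libraries with H2-Ea-ps alone.

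The genes that rose with Cd8a outside the class were mostly higher on the CD8-rich side inside it. Of the 272, 254 were measured in the Cp-high libraries, 246 of these (96.9%) had a positive log2 difference against 52.0% of all genes, and their median was 0.41. Of the 254, 5 (1.97%) separated the sides against 0.109% of all genes, among them Ms4a4b, Grap2, Pglyrp2 and Anpep, and 65 of 253 (25.7%) separated the 4 highest from the 4 lowest libraries against 2.13% of all genes. Of the 21 that fell, 17 were measured, 9 of them were positive and their median was 0.00.

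**Figure D4:**
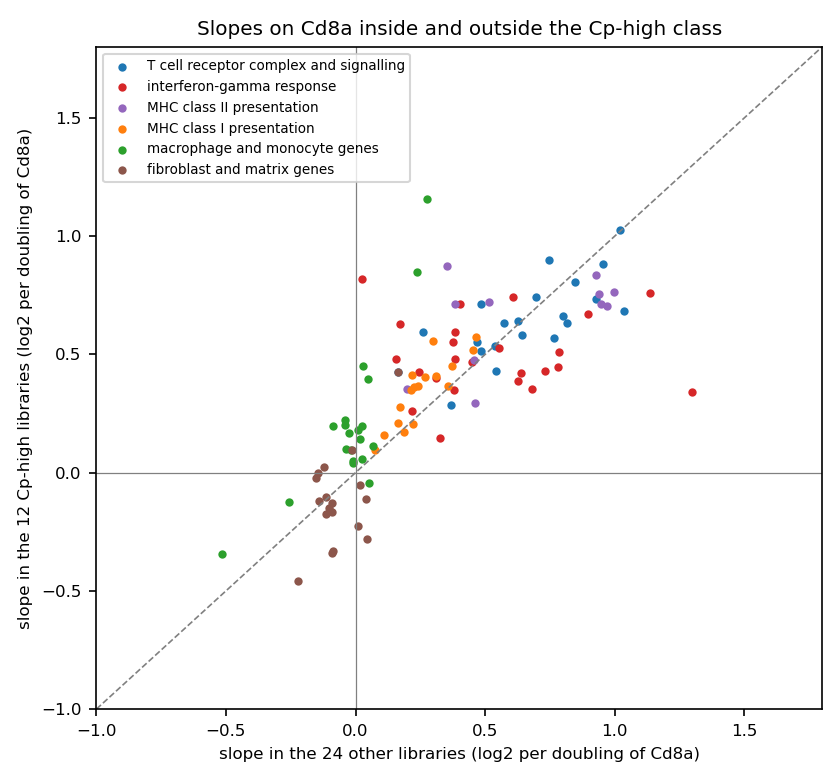
Slope of each gene on Cd8a (log2 per doubling of Cd8a) in the 24 other libraries (x axis) and in the 12 Cp-high libraries (y axis) for the genes of 6 lists; each point is 1 gene and the dashed line marks equal slopes. T cell receptor and MHC class II genes lie in the upper right, macrophage and fibroblast genes mostly near 0 on the x axis, and Cxcl9 lies far below the dashed line at 1.30 and 0.34.

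Whether the slopes differ between the class and the other libraries was tested over all 36 libraries with an interaction term. No gene of 18333 passed (0.0%) in edgeR, DESeq2 or limma-voom, with 449 (2.45%), 579 and 529 at an unadjusted p under 0.05. For Cd8b1 the slopes were 1.03 ± 0.14 in the class and 1.02 ± 0.08 outside it, and for Cd3g 0.88 ± 0.13 and 0.95 ± 0.06. Gzmb had 1.12 ± 0.43 in the class, a difference of 0.72 ± 0.45 from the other libraries. Cxcl9 had 0.34 ± 0.41, a difference of -0.95 ± 0.44. A difference that misses the threshold does not show that the slopes are equal, since the standard error was larger in the class than outside it for each of the 61 named genes.

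Taken separately, the 2 classes of the 24 libraries gave different counts, and the difference between them was not tested. Among the 12 libraries without H2-Ea-ps alone 297 genes rose and 24 fell, whereas among the 12 with it edgeR called 0 and 0, with 408 genes at an unadjusted p under 0.05. The Cd8a range was narrower in the latter, 6.00 to 20.1 CPM against 0.851 to 36.3 CPM, and PancO2 anti-PD-1 71, one of them, stood apart with 7883106 counts, 15.7% of them mitochondrial against 3.89% to 4.27% in the other 11, and with 86.5% of its reads not assigned to a gene. In the libraries with H2-Ea-ps the slope was 1.04 for Cd3e and 1.13 for Ifng, against 0.93 and 1.2 over all 24. It was 0.55 for Cxcl9 against 1.30, 0.07 for H2-Q7 against 0.45 and -0.05 for P2ry14 against 0.42. Without PancO2 anti-PD-1 71 the counts over the remaining libraries were 412 and 73.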

How the data were processed

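Tumor RNA of 36 mice was sequenced after poly(A) selection. The authors deposited 1 table of raw counts per gene. The submitters' processing notes name FastQC 0.11.5, Bowtie2, HTSeq 07.2 and the mm10 build, and the strand setting is not given in the sources used here, so overlapping antisense genes cannot be told apart. The 5 summary lines of the counter, 44.8% to 86.5% of all reads over the 36 libraries (50.6% to 63.4% in the Cp-high 12), were left out. Gene names and coordinates were available for 32608 of 37417 genes.

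CPM was the count divided by the column sum. The members and the 22 gene lists were chosen with earlier results of these data known. Genes with a mean of at least 1 CPM in the 12 libraries were described with means of log2(CPM + 0.5) and with no test. A gene followed the cut when the sides did not overlap and differed by at least 2-fold. Named genes were those with a symbol, without overlap and with a mean of at least 10 CPM, largest log2 differences first and without receptor variable segments, the 2 measured members of each list with the largest absolute log2 difference, and Cp, Cd8a, Cd8b1, Cd3e, Cd4, Foxp3, Pdcd1, Cd274, Ifng, Gzmb, Prf1, Cxcl9, Cda, P2ry6, Mrc1, Msr1 and Cd163. Any other gene is named after its values were seen. The 24 other libraries were tested with edgeR 4.0.16 (R 4.3.3, TMM, filterByExpr, quasi-likelihood F test, Benjamini-Hochberg), and DESeq2 1.42.0 and limma 3.58.1 were alternatives. Only the slope tests, including that of the difference of slopes, were run on simulated counts, with a single dispersion and a single size of slope. The comparison of the CD8-rich and CD8-poor sides was not simulated. Of 66 pairs of Cp-high libraries the most alike had a chi-square of 17.3 per degree of freedom, so none was counted as a duplicate. Depth is given with the results.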

Additional observations from a re-analysis of the deposited data

Results flagged for a closer look

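Among 122 sets of 6 libraries looked at (61 named genes on each side of the cut), 6 held 1 library far from the other 5 by Dixon's test, where chance flags about 1 in 20 groups, or 6.1 here. In CT26 IgG 28, a CD8-poor library, Glrx was at 35.2 CPM against 44.3 to 50.4 CPM in the other 5, and Anpep at 28.2 CPM against 37.6 to 42.5 CPM. PancO2 IgG 48, a CD8-rich library, held 63.1 CPM of S100a9 against 10.5 to 20.2 CPM, and 5439 CPM of mt-Nd5 against 2438 to 3266 CPM. CT26 anti-CTLA4 36, on the CD8-poor side, held 3.79 CPM of Krt14 against at most 0.329 CPM. MC38 anti-CTLA4 8, on the CD8-rich side, held 20.2 CPM of Cda against 13.9 to 15.3 CPM.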

How the results depend on the processing

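The count of genes that followed the cut by at least 2-fold without overlap, 2 higher and 0 lower, depended on the settings. The higher count was 0 with a pseudocount of 2 CPM, with a mean of at least 10 CPM and with libraries ranked by Cd8b1, 1 without the libraries richest in keratin and muscle transcript, 15 with no minimum fold, 18 for the 4 highest against the 4 lowest libraries, 44 by the rule of 34 pairs and 56 by fold alone. The lower count was 3, 5 and 6 for the 4 against 4, the rule of 34 pairs and fold alone. Leaving out each library gave 1 to 6 higher (1 without PancO2 IgG 48 or MC38 IgG 7, 6 without PancO2 anti-CTLA4 57) and 0 to 1 lower (1 without PancO2 anti-PD-1 70 or CT26 anti-PD-1 46). Over the lists the count was 0, which became 1 with no minimum fold and 9 by the rule of 34 pairs. In the 24 other libraries 272 genes rose and 21 fell. With no class term these were 127 and 9, in the H2-Ea-expressing libraries alone 0 and 0, and the count that fell was 63 in DESeq2 and 56 in limma-voom. Leaving out each library gave 211 to 412 that rose (412 without PancO2 anti-PD-1 71) and 7 to 73 that fell (7 without CT26 anti-PD-1 40, 33 without MC38 anti-CTLA4 11, 73 without PancO2 anti-PD-1 71). The difference of slopes gave 0 to 1 higher, 1 (Dnajb13) without PancO2 anti-PD-1 71. Among the slopes recomputed under every setting, those that changed sign were those of Mto1 with no class term (0.0026), of P2ry14 in the H2-Ea-expressing libraries alone (-0.048), of Gzmf in limma-voom (-0.083), in the H2-Ea-expressing libraries alone (-0.082) and on leaving out 1 library (-0.041 to 0.099, negative without PancO2 IgG 49, PancO2 IgG 51 or PancO2 anti-PD-1 64), and of Serping1 on leaving out 1 library (-0.046 to 0.32, negative without CT26 anti-PD-1 40). The cause of these changes was not tested. The rule of 34 pairs and the removal of the libraries richest in keratin and muscle transcript were chosen after seeing the data. No paired analysis was possible because each mouse number belongs to 1 library. Cd8a rested on 157 counts in the shallowest CD8-poor library, which limits the ranking there.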

Other observations

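Of the 21 genes that fell with Cd8a in the 24 other libraries, Lyve1 and Folr2 are known from resident macrophages, and their slopes and differences inside the class were within their errors. The genes in these observations were named after their values were seen. Lyve1, a hyaluronan receptor of lymphatic endothelium and perivascular macrophages, had a slope of -1.06 ± 0.20 (SE, edgeR adjusted p = 0.00212), a slope of 0.39 ± 0.65 in the Cp-high libraries and a log2 difference between their sides of 0.49 ± 0.55. Folr2, folate receptor β of resident macrophages, had a slope of -0.45 ± 0.07 (SE, edgeR adjusted p = 0.000416) outside the class, -0.33 ± 0.35 in the Cp-high libraries and a log2 difference of 0.02 ± 0.45. Whether these values differ between the class and the other libraries gave no adjusted call for any gene.

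Immunoglobulin genes were among the widest differences of the cut at low levels. Ighg2c was at 0.296, 2.46 and 9.69 CPM against 0.0548, 0.216 and 1.15 CPM (lowest, median, highest) in the CD8-rich and the CD8-poor libraries, a log2 difference of 1.75 ± 0.56 with 34 of 36 pairs higher. The mean of Ighg2c in the CD8-poor libraries, 0.424 CPM, lay below the limit of 1 CPM for measured genes. Reads of the Ighg genes can be shared between copies. Penk, which encodes proenkephalin, was at 2.28, 3.28 and 6.98 CPM against 0.954, 1.55 and 3.04 CPM, a log2 difference of 0.92 ± 0.28, and Cst7, cystatin F of cytotoxic and myeloid cells, at 2.95, 3.94 and 6.02 CPM against 0.822, 2.22 and 3.35 CPM, a log2 difference of 0.80 ± 0.26.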
